A study of Mus musculus with 6 samples.

Results

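The genes described here are Cap1 and 9 other genes of actin filament turnover, Cap2, Cfl1, Cfl2, Dstn, Twf1, Pfn1, Wdr1, Actb and Actg1, measured in proximal tubules of mouse kidney with and without Clcn5. Every probe set annotated with just 1 gene symbol, that of a member, was taken, which gave 20 of the 45101 probe sets of the array, for 9 of the 10 genes. The array has 18194 genes with such a probe set. Twf1 has 3 probe sets, each annotated with another gene as well, so no value is given for it. The set was proposed with the difference between knockout and wild type in view, because Cap1 is among the genes that differ most. That difference is therefore given for the members as a description, with its error and without a test.

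Actin filaments grow by adding monomers at one end and shrink by losing them at the other. Proteins of the ADF/cofilin family bind and sever aged filaments, cyclase-associated proteins and WDR1 help them take filaments apart, and cyclase-associated protein and profilin recharge the released monomers for a new round of growth. In the proximal tubule, actin bundles form the core of the brush border microvilli, and actin also takes part in the uptake of filtered proteins at the base of the microvilli. Cofilin has been described as a partner of ClC-5, the endosomal chloride/proton exchanger encoded by Clcn5, in cultured tubule cells.

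The 2 groups were Clcn5 knockout and wild type mice, with 3 arrays each. In both, mice were under halothane, the left kidney was flushed with cold salt solution, and 80 to 100 tubule pieces of 2 mm were dissected per kidney. Each array carried the RNA of several animals: the labels give 3 to 4 mice per pool and the array records 7. Those records describe the arrays of a group as biological replicates. Strain, age, sex and the deleted part of Clcn5 are not given in the sources used here. The values are signals on a linear scale from Affymetrix Mouse430_2 arrays, brought by the authors to 1 common trimmed mean, and they carry no detection calls.

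Median signals ranged from 40.9 to 48.8 over the arrays, with knockout array 3 at the top. Arrays of the same group had a Pearson's r across probe sets of 0.939 to 0.954, and arrays of different groups one of 0.93 to 0.95. The 4 probe sets of Clcn5 had log2 changes of −2.87 to −1.50, with no overlap between the groups. Of 22519 probe sets bright enough to be tested, 1071 differed between knockout and wild type by limma at an adjusted p under 0.05, which is 4.76%, with 2.29% higher and 2.46% lower in knockout. All 10 marker genes of the early proximal tubule (S1 and S2) passed the filter on dim probe sets, and so did all 6 of the thick ascending limb and all 6 of the distal convoluted and connecting tubule. Passing the filter is no detection call, and the brightness of these markers differed. In the thick ascending limb list, Umod had means of 5155 in knockout and 3875 in wild type, and Cldn16 78.5 and 74.1. Bright signal was thus read for some markers of other segments, though not for all. In such bulk samples more cells of a type and more RNA per cell cannot be told apart.

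Cap1, the cyclase-associated protein of most tissues, was the member that stood far apart. On probe set 1417461_at its signals were 786, 808 and 762 on knockout arrays 1 to 3 and 147, 168 and 163 on wild type arrays 1 to 3. All knockout signals were several times above all wild type ones, and neither group spread by more than a small part of that gap. The fitted ratio was 4.94-fold, with a 95% interval of 4.37 to 5.58 (log2 change 2.30, SE 0.08). Its means were 785 ± 22.7 and 159 ± 10.6 (SD, n = 3). Among the 22519 tested probe sets, 18 had a larger log2 change in either direction.

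The other Cap1 probe set, 1417462_at, showed the same direction with a wider gap. Its signals were 342, 403 and 402 in knockout and 41.1, 48.4 and 39.4 in wild type. The fitted ratio was 8.90-fold (log2 change 3.15, SE 0.13, 95% interval 2.86 to 3.45), and 6 of the tested probe sets had a larger change. The wild type signals lie close to the filter on dim probe sets, a signal of 41.9, so how much of them is background could not be read from this table. With 50 added to every signal the log2 changes were 2.21 for 1417462_at and 2.00 for 1417461_at.

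The sizes of the change on the 2 probe sets cannot be set against each other, since the wild type signals of 1417462_at are so dim. The signal of 1417461_at divided by that of 1417462_at was 2.30, 2.00 and 1.90 on the knockout arrays and 3.58, 3.46 and 4.12 on the wild type arrays. The ratio was lower on every knockout array, but it rests on those dim signals. With 50 added the changes were 2.00 and 2.21. Adding 50 shrinks the change of the dimmer probe set more, so nothing is read from how close these 2 values lie. Without any 1 of the 6 arrays the log2 changes stayed at 2.25 to 2.34 and 3.09 to 3.24. The arrays were washed and stained on 2 fluidics stations, and each station handled arrays of both groups. The array records also give a solution lot, and knockout array 3 alone had a lot different from that of all other arrays. That array is the knockout array of station 2, so lot and group cannot be told apart there. On station 1 the log2 changes were 2.36 and 3.20, and on station 2, with 1 array per group, 2.18 and 3.05.

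**Figure D1:**
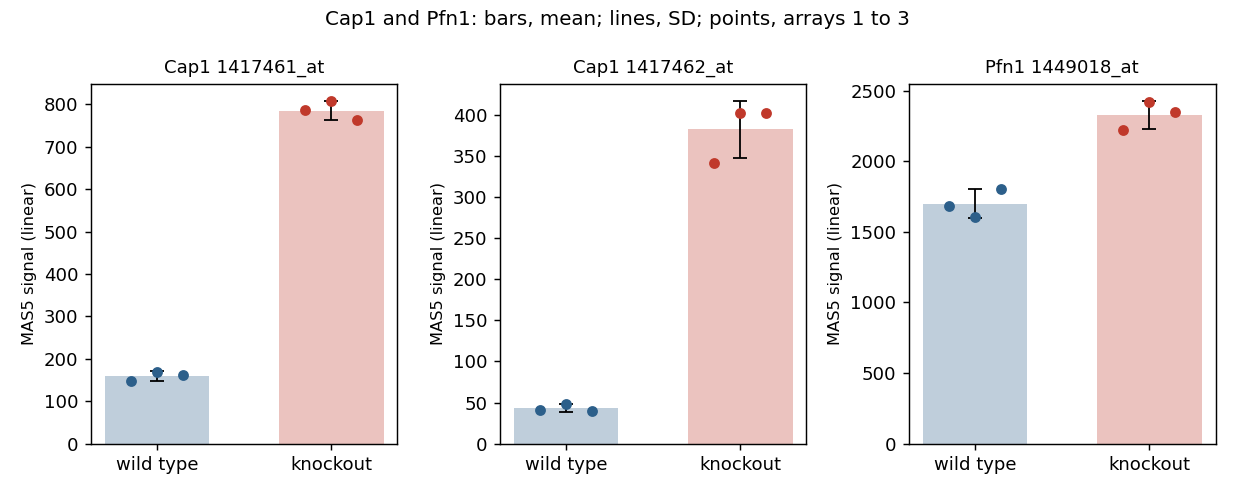
Signals (linear scale) of the 2 Cap1 probe sets and of Pfn1 in wild type and knockout tubules, with bars for means, lines for SDs and points for the 3 arrays of each group. The knockout arrays lie above the wild type arrays in all panels, by 4.94-fold and 8.90-fold for Cap1 and by 1.37-fold for Pfn1.

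The stretch of 250 bases before the start of Cap1 is shown because Cap1 carries the largest difference among the members, and that of its neighbour Mfsd2a because it also differed and is read from the same strand. Pfn1 is shown as the other bright member whose groups do not overlap, and Actg1 as an actin gene whose groups do. The sequences are from RefSeq (GRCm38.p6), are written 5′ to 3′ on the strand of the gene, and lie at chr4:122886077-122886326, chr4:122961189-122961438, chr11:70654651-70654900 and chr11:120348496-120348745, all on the minus strand. Capitals mark matches, on either strand, to the CCAAT box (CCAAT), the GC box (GGGCGG), the TATA box (TATAAA) and the CArG box, the site of the serum response factor SRF; neighbouring GC boxes can overlap.
Cap1: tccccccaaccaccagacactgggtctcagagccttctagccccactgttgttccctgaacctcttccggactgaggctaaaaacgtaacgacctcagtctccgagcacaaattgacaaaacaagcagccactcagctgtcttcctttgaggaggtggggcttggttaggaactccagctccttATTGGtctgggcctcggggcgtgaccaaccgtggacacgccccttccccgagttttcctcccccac
Mfsd2a: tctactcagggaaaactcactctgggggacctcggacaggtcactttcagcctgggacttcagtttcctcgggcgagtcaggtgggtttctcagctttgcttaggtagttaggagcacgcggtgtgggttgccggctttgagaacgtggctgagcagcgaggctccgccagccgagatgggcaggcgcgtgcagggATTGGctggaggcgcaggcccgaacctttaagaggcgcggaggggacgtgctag
Pfn1: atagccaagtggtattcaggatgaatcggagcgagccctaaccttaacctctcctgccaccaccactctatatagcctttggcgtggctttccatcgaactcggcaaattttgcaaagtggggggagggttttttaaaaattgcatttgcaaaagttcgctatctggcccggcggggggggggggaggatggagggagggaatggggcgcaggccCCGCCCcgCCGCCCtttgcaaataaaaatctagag
Actg1: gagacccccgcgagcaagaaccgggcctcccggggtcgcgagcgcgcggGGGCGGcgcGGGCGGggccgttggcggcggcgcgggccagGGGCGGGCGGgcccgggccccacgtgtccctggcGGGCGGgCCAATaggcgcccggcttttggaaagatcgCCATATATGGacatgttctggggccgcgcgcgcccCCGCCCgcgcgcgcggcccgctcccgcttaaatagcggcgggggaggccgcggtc

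Cap1 and Mfsd2a each held 1 CCAAT box, starting 66 and 54 bases before the gene start, and no other of these motifs. Pfn1 held 2 GC boxes, and Actg1 6 GC boxes, 1 CCAAT box and 1 CArG box. RefSeq gave a promoter for 9 members, among them Twf1. A CArG box was found in 1 of the 9, against 1.47% of all 32851 promoters of the same length. CCAAT boxes were found in 5 of 9 (33.8% of all), GC boxes in 6 of 9 (32.7% of all) and a TATA box in none (12.4% of all). These matches describe letters in the sequence and are no evidence of binding.

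Cap2, the paralog of Cap1 that is best known from heart and other muscle, was dim on both of its probe sets and passed the filter on neither. On 1450910_at its signals were 36.3, 28.9 and 50.6 in knockout and 26.9, 35.6 and 30.0 in wild type. The groups overlapped, and the log2 change was 0.30 with a 95% interval of −0.36 to 0.96. Probe set 1423222_at had signals of 1.90 to 2.61 in knockout and 2.26 to 4.77 in wild type, with a log2 change of −0.67 (−2.0 to 0.67). The intervals leave the size and the direction of any change of Cap2 undetermined, and its transcript was not measurable here with useful precision.

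The ADF/cofilin proteins, which bind along filaments and sever them, had close signals in knockout and wild type. Cfl1 encodes the cofilin of non-muscle cells. On 1448346_at its signals were 1284, 1304 and 1404 in knockout and 1321, 1202 and 1313 in wild type. The groups overlapped, and the log2 change was 0.06 (SE 0.07, 95% interval −0.09 to 0.21). The other probe set, 1455138_x_at, whose suffix marks probes that may also match other transcripts, gave 2494, 2999 and 2701 against 2587, 2643 and 2840. Its log2 change was 0.02 (−0.16 to 0.20), and knockout arrays were both the lowest and the highest of the 6.

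Dstn encodes destrin, also called ADF. Its only probe set, 1417124_at, had signals of 1976, 2048 and 1782 in knockout and 1838, 1877 and 1889 in wild type. The wild type values lay inside the range of the knockout values, with a log2 change of 0.05 (−0.10 to 0.20).

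Cfl2 encodes the cofilin isoform of muscle and was read by 3 probe sets. On 1418067_at its signals were 805, 951 and 940 in knockout and 926, 890 and 936 in wild type, a log2 change of −0.03 (−0.20 to 0.14). On 1418066_at they were 277, 319 and 311 against 309, 317 and 309, a log2 change of −0.05 (−0.23 to 0.14). In both, knockout array 1 was the lowest of the 6 and the groups overlapped. The third, 1431432_at, was below the filter, at 32.4, 33.0 and 30.7 against 25.4, 27.5 and 30.1. Its groups do not overlap, but the log2 change of 0.21 has a 95% interval of −0.37 to 0.80 and was 0.08 with 50 added to each signal.

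Pfn1 encodes profilin, which binds actin monomers and delivers them to growing filament ends. Its single probe set, 1449018_at, had signals of 2223, 2419 and 2347 in knockout and 1684, 1605 and 1807 in wild type. Every knockout array was above every wild type array. The fitted ratio was 1.37-fold (log2 change 0.46, SE 0.07, 95% interval 0.30 to 0.61), and 8.65% of the tested probe sets had a larger change. The log2 change was 0.42 to 0.50 without any 1 array, 0.41 on station 1 and 0.55 on station 2.

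Profilin is also abundant in immune cells, and markers of cells other than tubule cells were read beside it. Of 12 leukocyte markers, 3 rose by limma and none fell, where 5.59% of all tested genes passed. The summed signal of the 12 was 3183 to 3271 in knockout and 2229 to 2264 in wild type. Log2 changes ran from −0.01 to 0.73, and the 3 that rose were Cd74, Csf1r and Laptm5. Cd74 and Csf1r are the brightest of the 12 and weigh most in the sum (means 1095 against 662 and 873 against 583). The other kept probe sets of Laptm5 were at −0.07, 0.21 and 0.06, and those of Csf1r at 0.69 and 0.34. Of 5 podocyte markers, 2 rose, with sums of 1175 to 1467 and 935 to 980. None of 6 markers of stroma and smooth muscle passed, with sums of 1098 to 1107 and 950 to 1047. Without detection calls no listed marker could be called present or absent. The part of these cells in the values of Pfn1 and Cap1 was not tested.

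Wdr1 encodes the cofactor that speeds cofilin's disassembly of filaments, and its 3 probe sets lay slightly higher in knockout without separating the groups. Probe set 1450851_at had signals of 1014, 879 and 994 in knockout and 918, 860 and 862 in wild type, with a log2 change of 0.13 (−0.04 to 0.29). Probe set 1437591_a_at had 446, 429 and 405 against 376, 415 and 387, with a log2 change of 0.12 (−0.05 to 0.29). Probe set 1423054_at had 602, 539 and 535 against 523, 521 and 538, with a log2 change of 0.08 (−0.08 to 0.24). Knockout array 1 was the highest of the 6 on each, and at least 1 knockout value lay within the wild type range. On 1437591_a_at the log2 change was 0.20 on station 1 and −0.03 on station 2.

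Actb and Actg1 encode the cytoplasmic beta and gamma actins, the subunits of which these filaments are built. Actb is read by 2 regular probe sets and by 3 controls that the maker placed at the 3′ end, the middle and the 5′ end of its transcript to follow RNA quality. On 1436722_a_at its signals were 5939, 7185 and 8042 in knockout and 5893, 5317 and 6893 in wild type. The groups overlapped, with a log2 change of 0.22 (SE 0.12, 95% interval −0.05 to 0.50). That change was 0.04 on station 1 and 0.60 on station 2, where knockout array 3, the highest of the 6, met wild type array 2, the lowest.

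The other regular probe set of Actb, 1419734_at, did not follow this pattern. Its signals were 1373, 1504 and 1342 in knockout and 1464, 1493 and 1503 in wild type, a log2 change of −0.08 (−0.23 to 0.06). Here knockout array 3 was the lowest of the 6. The sign of the Actb difference thus differed between its 2 probe sets, and both intervals hold 0.

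The control probe sets of Actb had log2 changes of 0.05 at the 3′ end (−0.15 to 0.26), 0.13 in the middle (−0.09 to 0.35) and 0.16 at the 5′ end (−0.08 to 0.40). The 3′ signal divided by the 5′ signal was 1.21, 1.3 and 1.1 on knockout arrays 1 to 3 and 1.24, 1.36 and 1.28 on wild type arrays 1 to 3. Knockout array 3 had the lowest ratio and wild type array 2 the highest, the same arrays that were highest and lowest in the signal of 1436722_a_at. That match is no separate reading of RNA quality, because the ratio is divided by the 5′ signal of the same transcript. The deviations of 1436722_a_at from the group means had an r of 0.99 with those of the 5′ control and 0.89 with those of the 3′ control. Whether RNA quality has a part in the actin values was not tested.

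Actg1 was read by 1415779_s_at, a probe set whose suffix marks probes shared between transcripts, so a part of its signal may come from related actins. Its signals were 5167, 5612 and 5868 in knockout and 4991, 4674 and 5382 in wild type. Knockout array 1 lay within the wild type range, and the log2 change was 0.15 (−0.03 to 0.32). After quantile normalization the log2 change was 0.07, and that of Actb on 1436722_a_at was 0.14.

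The bright actin probe sets moved together from array to array. For Actg1, Actb on 1436722_a_at and the 3 Actb controls, Pearson's r of the deviations from the group means over the 6 arrays was 0.81 to 0.99 in the 10 pairs. The deviations of Pfn1 had an r of 0.78 to 0.93 with these 5 probe sets. Those of 1419734_at, the dimmer Actb probe set, had −0.13 to 0.45 with them. The same 6 arrays, their scaling and in part the same transcript enter all of these values, so they describe the arrays only. The deviations of Cap1 on 1417461_at had an r of 0.37 with those of its other probe set.

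**Figure D2:**
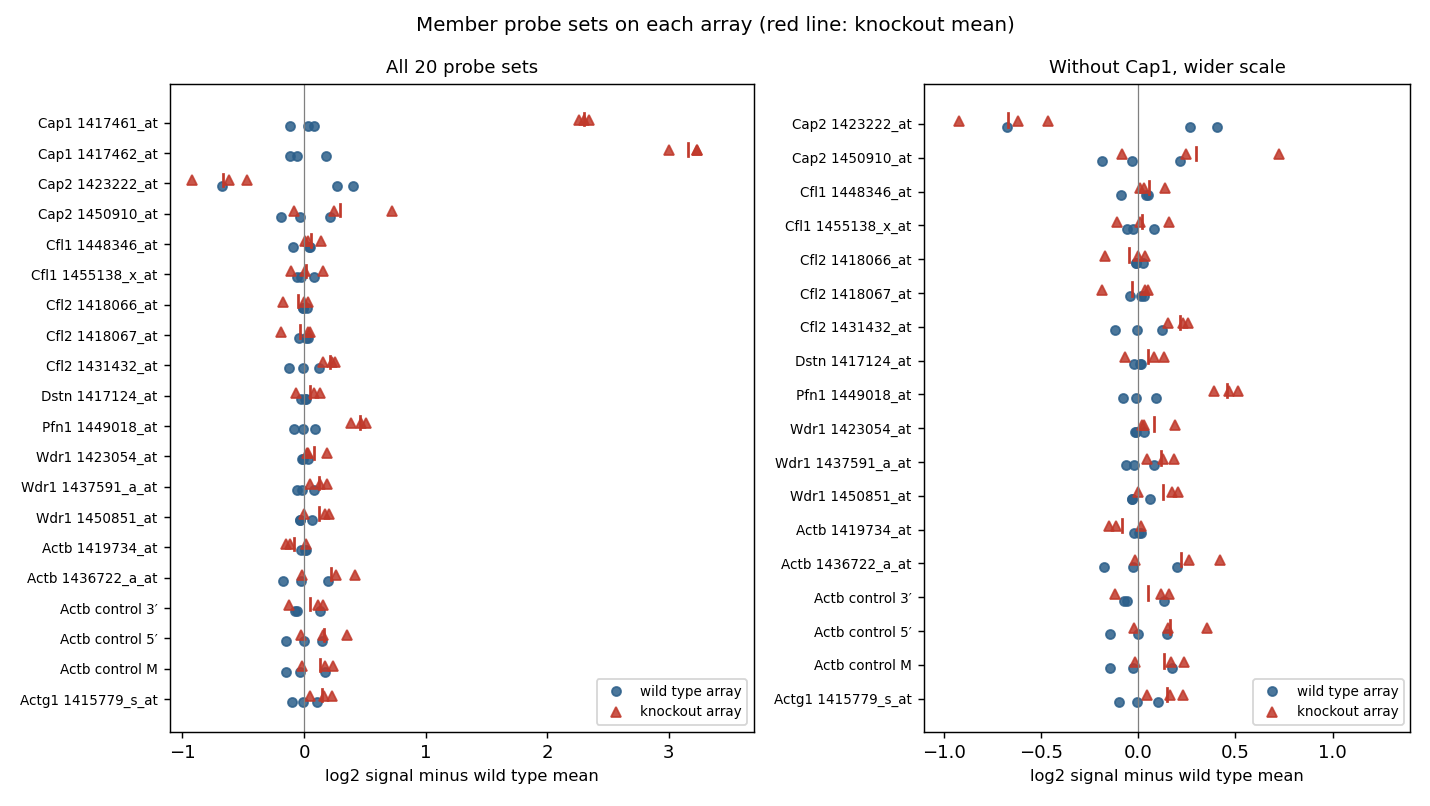
Log2 signal minus the wild type mean for each of the 20 member probe sets, with circles for wild type arrays, triangles for knockout arrays and a red line for the knockout mean. The left panel shows both Cap1 probe sets at 2.30 and 3.15, and the right panel, without Cap1, shows Pfn1 at 0.46 and overlapping groups for 16 of the other 18 probe sets.

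Counted over all 20 member probe sets, the 3 knockout signals were all above the 3 wild type signals in 4 and all below in none. These 4 are both of Cap1, that of Pfn1 and the dim Cfl2 1431432_at. Of all 45037 probe sets that are not controls, 17.6% had groups that do not overlap in either direction, and 9.03% had all knockout signals above and 8.6% all below. Among the probe sets that passed the filter, where 14 are members, 23.2% did not overlap, with 12.0% above and 11.2% below. Since the members were chosen on this comparison, nothing is read from the count. The median log2 change was 0.12 over the 20 and 0.00 over all tested probe sets, and 0.05 for the members on station 1 alone.

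Apart from Cap1 and Pfn1, 14 member probe sets passed the filter or are controls. Their log2 changes ran from −0.08 to 0.22, and the 95% intervals reached down to −0.23 and up to 0.50. Larger changes than these bounds lie outside the intervals of all 14.

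**Figure D3:**
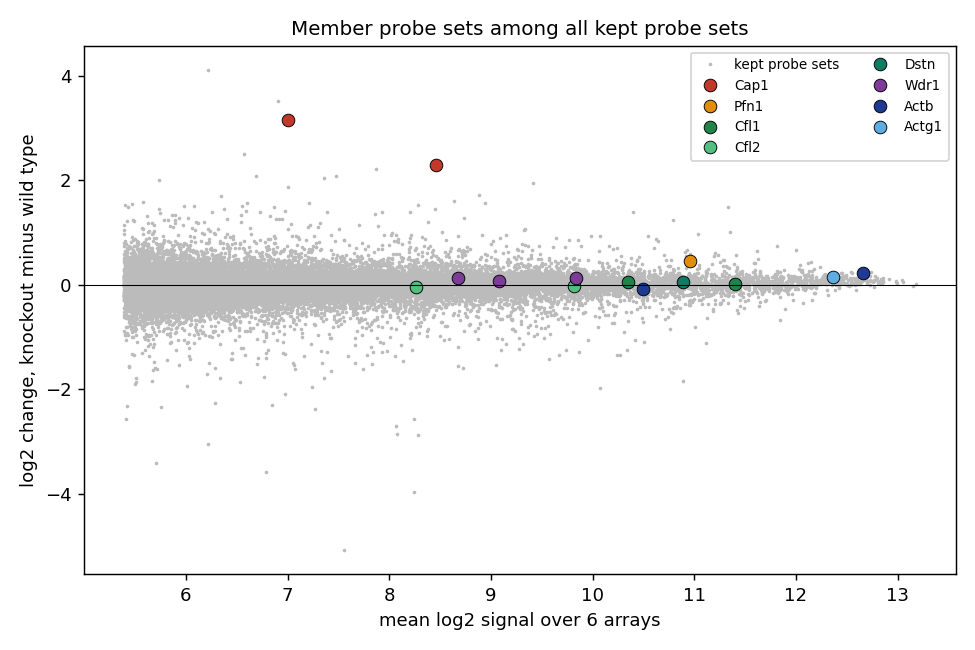
Mean log2 signal over the 6 arrays (horizontal) and log2 change from wild type to knockout (vertical) for the 22519 tested probe sets in grey and the 14 member probe sets among them in colour. Both Cap1 probe sets lie far above the grey band, Pfn1 at 0.46 lies above most probe sets of like signal, and the other members lie between −0.08 and 0.22.

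The genes whose course over the 6 arrays was most like that of Cap1 were found among 11619 other genes by the root mean square difference of log2 signals from the wild type mean. Tmem267 was closest, with a difference of 0.10, and had signals of 463, 526 and 525 in knockout and 96.7, 116 and 114 in wild type. It was followed by Ppard, the gene of a fatty acid sensing nuclear receptor, at 0.27, and by Abhd1 at 0.28, Rpgrip1 at 0.31 and Ocel1 at 0.33. Pearson's r with Cap1 over the 6 arrays was 0.975 to 0.998 for these 5. They rank by a measure that the group difference dominates, and they share the arrays with Cap1. In Abhd1, knockout array 3 stood apart at 493, against 330 and 308.

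The nearest measured genes on both sides of Cap1 on chromosome 4 rose in the knockout. Mfsd2a, which encodes a carrier of lysophospholipids, had signals of 239, 234 and 295 in knockout and 96.3, 85.7 and 76.5 in wild type. It was 2.97-fold higher (log2 change 1.57, SE 0.13, limma adjusted p = 9.82e-05), with a log2 change of 1.46 on station 1 and 1.78 on station 2. Ppt1, which encodes a lysosomal palmitoyl-protein thioesterase, was 1.45-fold higher on 1422467_at (722 ± 28.9 against 499 ± 17.5, SD, n = 3; log2 change 0.53, SE 0.07, adjusted p = 0.00108).

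The rise of Ppt1 rests on that probe set. Its other tested probe sets, 1422468_at and 1420015_s_at, had log2 changes of 0.04 and −0.18, and the call ended when the kept probe sets were averaged (log2 change 0.13, adjusted p = 0.357). In RefSeq the genes Cap1 and Ppt1 lie on opposite strands and overlap at their 3′ ends, where the probes of this kind of array lie. Whether 1422467_at reads any Cap1 transcript was not tested. On the next places outward, Rlf (log2 change −0.14, adjusted p = 0.665) and Mycl (−0.30, adjusted p = 0.669) did not pass.

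Of the 20 nearest measured genes around Cap1, 10 on each side, 2 rose and 1 fell by limma, where 5.59% of all 11620 tested genes passed, 2.8% in each direction. The gene that fell was Ctps, which makes cytidine triphosphate, at 1.34-fold lower (adjusted p = 0.0266). It no longer passed when any array other than knockout array 1 was left out, with adjusted p-values of at most 0.126, nor with arrays centred on their medians, with no intensity trend or with no filter on dim probe sets (at most 0.184). The median log2 change of the 20 was 0.00. Around all 10 members, 4 of 200 such neighbours rose and 5 fell, which is 4.5% and close to the share among all genes.

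The other neighbours that passed were looked at after their values were seen. Rnf167, which encodes a ubiquitin ligase and is the measured gene just before Pfn1 on chromosome 11, fell 1.6-fold, in the direction opposite to Pfn1. Its signals were 493, 471 and 437 in knockout and 805, 746 and 696 in wild type (log2 change −0.68, SE 0.08, adjusted p = 0.000635). Nfkbia, which encodes an inhibitor of NF-κB, lies near Cfl2 and had a log2 change of 0.58. Atxn1 near Cap2, Kif21a and Arid2 near Twf1 and Prom1 near Wdr1 had log2 changes of −0.39, −0.41, 0.43 and −0.47. The other kept probe set of Kif21a was at −0.07, and those of Arid2 lay on either side of 0.

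**Figure D4:**
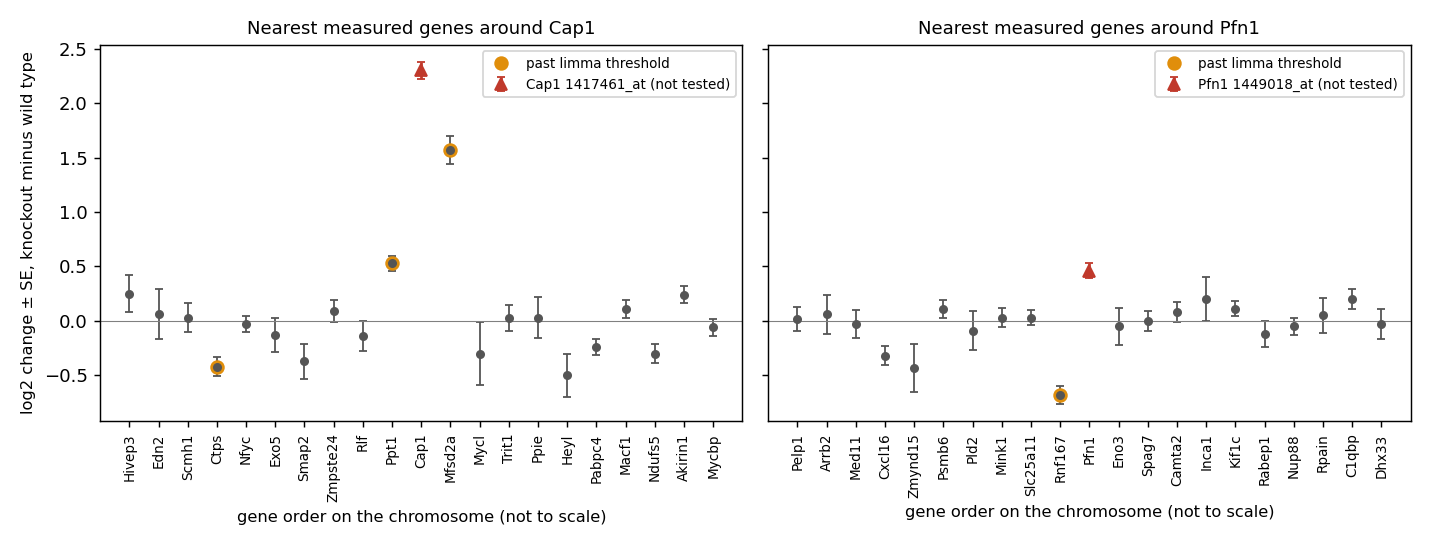
Log2 change ± SE (vertical) of the 10 nearest measured genes on each side of Cap1 and of Pfn1, in the order of the chromosome (horizontal, not to scale), with orange marks for genes past limma's threshold. Beside Cap1 at 2.30 stand Ppt1 at 0.53 and Mfsd2a at 1.57, and beside Pfn1 at 0.46 stands Rnf167 at −0.68.

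Other genes of the actin machinery, which are no members, were read from 6 lists. Of 121 entries, 89 could be tested, and 3 rose and 2 fell by limma, which is 5.62% against 5.59% of all tested genes. The median log2 change of the 89 was 0.05, and 0.01 over all genes. The share that passed was thus near that of any gene.

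Among 6 tested genes for monomer binders and other actins, Tmsb10, which encodes a thymosin that holds actin monomers, rose 1.48-fold. Its signals were 841, 797 and 806 in knockout and 579, 517 and 561 in wild type (log2 change 0.56, SE 0.07, adjusted p = 0.000929). Its other kept probe sets had log2 changes of 0.17, 0.32 and 0.65. The related Tmsb4x had a log2 change of 0.30 (adjusted p = 0.207), which passed without knockout array 3 (0.43, adjusted p = 0.0189). Acta2, the actin of smooth muscle, was at 0.18 and Mical2, an enzyme that oxidises actin, at −0.26, and neither passed. Thymosins are abundant in leukocytes, whose 12 markers had the sums given beside Pfn1, and their part was not tested.

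Among 23 genes for capping, severing and disassembly, 1 rose and 1 fell. Tmod1, which caps the slow-growing end of filaments, rose from a dim signal, with 84.3, 99.5 and 72.8 in knockout and 38.0, 33.5 and 36.9 in wild type (log2 change 1.23, SE 0.20, adjusted p = 0.00449). All 3 wild type signals lie under the filter of 41.9, which the probe set passed through its knockout arrays, so the size of the change is uncertain, and with 50 added to each signal the log2 change was 0.65 (adjusted p = 0.00422). Cotl1, which encodes the cofilin-related coactosin-like protein, fell 1.47-fold, with 890, 825 and 682 against 1096, 1220 and 1185 (log2 change −0.55, SE 0.10, adjusted p = 0.00781). All 5 of its other kept probe sets were lower too, from −1.02 to −0.36. The Cotl1 call ended with no intensity trend (adjusted p = 0.0751) and with arrays centred on their medians (0.0996). The next by p were Scin, at an adjusted p of 0.245, and Coro2b, at 0.254.

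Among 28 genes for nucleation and elongation, Cyfip2, a subunit of the WAVE complex that switches on branched nucleation, fell 1.91-fold. Its signals were 424, 540 and 484 in knockout and 883, 832 and 1046 in wild type (log2 change −0.93, SE 0.11, adjusted p = 0.000632). Its other kept probe set was at −0.50. Spire2, Fmnl1 and Vasp, an actin nucleator, a formin and an elongation factor, had log2 changes of 0.45, −0.37 and 0.17 and did not pass.

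None of 10 genes that control cofilin passed. The phosphatase gene Ssh3, whose product activates cofilin, had the smallest p (log2 change 0.43, adjusted p = 0.111). Rac1, Pak4 and Rock1, which act upstream of the kinases that switch cofilin off, were at 0.17, 0.12 and −0.09. At an unadjusted p under 0.05 Ssh3 was the sole gene of this list.

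Among 16 genes for cross-links and the brush border, Msn, which encodes moesin, a linker of filaments to the membrane, rose 1.27-fold. Its signals were 1111, 1295 and 1286 in knockout and 963, 945 and 990 in wild type (log2 change 0.35, SE 0.07, adjusted p = 0.0237). Msn no longer passed when any array other than knockout array 1 was left out, with adjusted p-values of at most 0.0991. The same held for arrays centred on their medians, no intensity trend and no filter on dim probe sets (at most 0.205). Moesin is the linker of endothelial and blood cells, and the other kept probe set of Msn was at 0.39. Ezr, which encodes the ezrin of the brush border, was at −0.16 (adjusted p = 0.260), and its other kept probe set at −0.01. The bundling proteins Fscn1 and Pls3 were at −0.37 and −0.19 (adjusted p = 0.302 and 0.369), and the other kept probe set of Fscn1 was at 0.03. None of 8 endothelial markers passed, and their sums were 2284 to 2552 in knockout and 2342 to 2436 in wild type, while 3 of 12 leukocyte markers rose, with sums of 3183 to 3271 and 2229 to 2264. The part of either cell type in the values of Msn was not tested.

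SRF and its cofactors MRTF-A and MRTF-B, which switch on actin genes when free monomers run low, did not pass either. The log2 changes were −0.03 for Srf, 0.09 for Mrtfa and 0.31 for Mrtfb (adjusted p = 0.950, 0.826 and 0.106), and 0.22 and 0.20 for the target genes Vcl and Tagln. The other kept probe set of Srf was at 0.18. None of the 6 tested genes of this list passed, and Mrtfb and Vcl had an unadjusted p under 0.05.

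**Figure D5:**
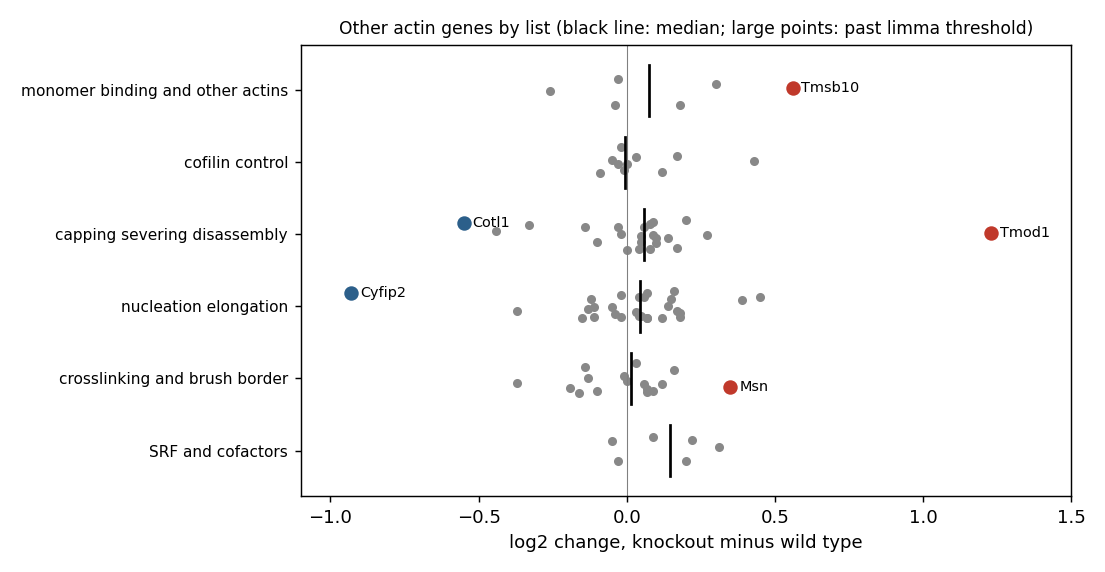
Log2 change from wild type to knockout (horizontal) for the 89 tested actin genes that are no members, by list, with a black line for each list's median and large labelled points for the 5 genes past limma's threshold. The medians lie between −0.01 and 0.14, and Tmod1 at 1.23 and Cyfip2 at −0.93 lie farthest out.

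The remaining lists hold early response genes and markers of tubule segments and erythroid cells. Of 18 early response genes, 11 rose and none fell, with summed signals of 12764 to 13413 in knockout and 9222 to 9715 in wild type. Of the 10 early proximal markers 1 fell, with sums of 32934 to 34627 and 32569 to 36279, and of 8 markers of the S3 segment 2 rose, with sums of 11818 to 12787 and 9645 to 9960. In the thick ascending limb 1 of 6 rose, with sums of 10055 to 10805 in knockout and 8133 to 8442 in wild type. In the distal convoluted and connecting tubule 3 of 6 rose, with sums of 16595 to 17446 and 13997 to 16252. In the collecting duct 2 of 7 rose and 1 fell, with sums of 3400 to 3662 and 3514 to 3832. These counts stand beside the 5.59% of all tested genes that passed. The summed signals of the S3, thick ascending limb, distal and early response lists did not overlap between the groups. The same held for the leukocyte, podocyte and stroma lists given beside Pfn1. Among single probe sets that passed the filter 23.2% did not overlap, and no such share was taken for sums. These sums weigh the brightest genes most and do not stand for every gene of a list. Log2 changes ran from −0.19 to 0.98 in the S3 list (median 0.08) and from −0.13 to 0.41 in the thick ascending limb list (median 0.19). In the distal list they ran from −0.12 to 0.53 (median 0.41). No erythroid marker passed the filter. The early response genes and these segments were not tested for a part in the values of Cap1 or Pfn1.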

How the data were processed

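RNA of dissected proximal tubules was pooled over mice, extracted with Trizol, amplified with oligo dT priming and given a biotin label, per the labels' protocols. The submitters' processing notes name GCOS 1.4 and MAS5. The authors deposited linear signal intensities, with a trimmed mean of 150.0 on every array. The genome build is not given in the sources used here.

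Probe sets were named by the platform annotation, and 34945 of 45037 that are not controls carry 1 symbol. Signals were turned to log2 with no pseudocount. A probe set was tested if its mean log2 signal over the 6 arrays reached the median, a signal of 41.9. Knockout and wild type were compared with limma 3.58.1 in R 4.3.3 (lmFit, eBayes with an intensity trend, two-sided, 4 residual degrees of freedom, Benjamini-Hochberg over 22519 probe sets at 0.05). Fold changes, SEs and 95% intervals come from this fit, and for members below the filter and control probe sets from the same fit over all 45101 probe sets. Genes that are no members were read by the brightest of their kept probe sets. The steps were tested on simulated data. The arrays give no counts, so their number limits the precision, and p-values measure the spread between RNA pools.

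Neighbours and the promoters came from RefSeq (GRCm38.p6), and of the 10 members all but Actb had a promoter there. Named are all member probe sets, the 4 genes with the smallest p of each actin list, the neighbours of Cap1 that passed with the 2 nearest on each side, the 5 genes most like Cap1, and Clcn5. Srf, the marker genes named in the text and the neighbours of other members that passed were added to these after their values were seen. Members and lists were chosen with earlier results of these data known. Alternatives changed the transform, normalization, filter, variance model, array weights, station block, block by array number, probe set rule and number of neighbours, and left out each array. Plots were drawn with matplotlib 3.10.9, and tables were made with pandas 2.3.3 and numpy 2.4.6 in Python 3.11.15.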

Additional observations from a re-analysis of the deposited data

How the results depend on the processing

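Of 320 comparisons of a member probe set under another setting, 314 stayed within 1 SD of the arrays, and the 6 others include both Cap1 probe sets with 50 added to each signal. Many of the 320 could not have left that range. The filter, the variance model and the blocks cannot alter a log2 change in this design. Leaving out 1 of the 3 arrays of a group can shift it only by less than 1 SD within the groups. The count is therefore no measure of robustness. The count of probe sets past the threshold, 1071, was 596 with arrays centred on their medians, 615 with no intensity trend and 646 on station 1 alone, a setting chosen after seeing the data. Without 1 array it was 660 to 1013, lowest without wild type array 1. The members' median log2 change of 0.12 was 0.05 on station 1. The 5 other actin genes past the threshold became 3 with arrays centred on their medians and 3 with no intensity trend. The 9 neighbours became 4 and 5 in these settings, 5 of 100 with 5 neighbours on each side and 17 of 400 with 20. Without 1 array the log2 change of Mical2 ranged from −0.50 to 0.04 and that of Mrtfa from −0.06 to 0.19, and neither gene had passed. The cause was not tested. With the array number as a replicate block the counts were 1101, 5 and 10. No pairing by array number was seen in the values. The deviations from the group means had an r of 0.008, 0.039 and −0.042 for arrays of the same number. Only knockout array 2 correlated best with its own number. Whether samples were paired when collected cannot be read from these values. The table has no detection calls, which limits what can be said of dim probe sets such as those of Cap2.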
